A study of Mus musculus with 8 samples.

Results

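Dividing cells among the sorted myeloid cells of mouse sciatic nerve were chosen by their own UMIs of Mki67 and Top2a: a cycling barcode had at least 500 genes, under 10% mitochondrial UMIs, at least 2 UMIs of Mki67 and at least 2 UMIs of Top2a. A UMI (unique molecular identifier) counts one captured RNA molecule. The rule was met by 86 of the 7752 barcodes that passed the gene and mitochondrial limits, leaving 7666 other barcodes for comparison. There were 32 cycling barcodes of 1441 in the library of crush and sham nerves at 1 week, 16 of 2100 in the library of PSNL and sham nerves at 1 week, 26 of 2442 in the crush library at 15 weeks and 12 of 1769 in the PSNL library at 15 weeks. The data are droplet single-cell RNA counts, and the 4 libraries pool 13 samples that were told apart by antibody hashtags.

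All animals were C57BL/6JolaHsd mice of either sex, bought at 7 weeks of age and operated on the left side. In partial sciatic nerve ligation (PSNL) a portion of the nerve was tied tightly, in the crush model the whole nerve was squeezed with forceps, and in sham surgery it was only exposed. At 1 week there were crush female and male, PSNL female and male, and sham female and male samples, and at 15 weeks crush F1, F2 and M1 and PSNL F1, F2, M1 and M2, with no sham sample. Cells were sorted as CD45+ and CD11b+, and Ly6G+ neutrophils were gated out at the early time. The labels call the 1 week libraries batch 1 and the 15 week libraries batch 2, so time and batch cannot be told apart. Whether a hashtag stands for 1 mouse or a pool of mice is not given in the sources used here, so p-values measure only the spread between these samples or libraries, which may be technical. In the edgeR tests much of that spread is shared between genes.

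Mki67 encodes a protein that coats the surface of mitotic chromosomes and is present in dividing cells but not in resting ones. Top2a encodes the DNA topoisomerase that untangles sister chromatids, and its RNA is most abundant in the G2 and M phases. Tissue macrophages can renew themselves by local division, whereas neutrophils and most blood monocytes have left the cell cycle. Conventional dendritic cells, which present antigen on MHC class II molecules, depend on the receptor FLT3 and include precursors that still divide after entering tissue, while macrophages depend on the receptor CSF1R.

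The 2 genes of the rule lie on the minus strand of chromosomes 7 (Mki67, 135689784 to 135716361) and 11 (Top2a, 98992943 to 99024189) in GRCm38. Genes of the G2 and M phases are known for promoters with CCAAT boxes and with the cell cycle homology region (CHR), whereas E2F sites are known from genes of the G1 to S transition. The 250 bases before the start site of both genes and of Cdk1, the mitotic kinase, are shown because they carry the sequence class to which the rule points. They are read 5′ to 3′ on the gene's strand from RefSeq, build GRCm38.p6, at chr7:135716380-135716629, chr11:99024190-99024439 and chr10:69352913-69353162. Capitals mark the CCAAT box by those letters, the CHR by the letters TTTGAA and the E2F site by TTTCCCGC or by TTTCGCGC or by TTTGCCGC or by TTTGGCGC, on either strand. None of the marked motifs overlap.
Mki67: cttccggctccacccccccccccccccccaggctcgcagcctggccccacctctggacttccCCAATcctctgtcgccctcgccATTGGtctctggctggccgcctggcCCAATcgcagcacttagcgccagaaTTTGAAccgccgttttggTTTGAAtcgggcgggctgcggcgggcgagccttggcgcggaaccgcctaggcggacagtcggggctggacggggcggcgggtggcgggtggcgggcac
Top2a: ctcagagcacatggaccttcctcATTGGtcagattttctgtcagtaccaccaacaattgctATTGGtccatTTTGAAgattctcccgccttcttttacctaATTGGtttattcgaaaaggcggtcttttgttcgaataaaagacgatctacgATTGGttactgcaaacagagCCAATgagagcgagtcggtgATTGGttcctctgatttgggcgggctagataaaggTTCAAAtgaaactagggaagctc
Cdk1: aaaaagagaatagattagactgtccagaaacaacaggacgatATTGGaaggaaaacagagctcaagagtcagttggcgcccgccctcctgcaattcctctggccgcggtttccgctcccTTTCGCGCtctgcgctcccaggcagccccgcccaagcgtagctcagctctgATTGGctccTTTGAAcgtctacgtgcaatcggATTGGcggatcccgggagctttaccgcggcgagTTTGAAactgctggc
The Mki67 window held 3 CCAAT boxes and 2 CHR letters, that of Top2a 6 and 2, and that of Cdk1 3 and 2 with 1 E2F match. Among all 32851 promoter windows of this length, 33.8% held a CCAAT box, 16% the CHR letters, 1.86% an E2F match and 5.55% both CCAAT and CHR. Among 54 windows that matched 49 of the 58 genes of the G2/M list described below the shares were 77.8%, 35.2%, 5.56% and 31.5%. Among 38 windows that matched 33 of the 46 S phase genes they were 60.5%, 13.2%, 23.7% and 10.5%. These matches describe letters in a window and are not evidence of binding.

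The cycling barcodes were deeper than the rest. Their median UMI totals were 13378, 11888, 20996 and 17514 in the crush and sham, PSNL and sham, crush 15 week and PSNL 15 week libraries, against 5006, 5165, 8207 and 6958 in the other barcodes of the same libraries. A rule that asks for UMIs of 2 genes favours deep barcodes, so the tests of cycling against other barcodes were also fitted against the 712, 1236, 1805 and 1479 other barcodes whose totals lay within the range of the cycling barcodes. Barcodes above the hashtag limit for several hashtags, which can hold cells of more than 1 sample, made up 8 of 32, 6 of 16, 2 of 26 and 1 of 12 cycling barcodes and 27.0%, 29.5%, 1.78% and 5.75% of the others. No doublet caller was run. Any pair of libraries shared 1 to 3 barcode sequences, none of them among the cycling barcodes. CPM stands for counts scaled to a total of 1000000 UMIs. Xist, which is expressed from the inactive X chromosome, was at 767 to 1331 CPM in the female hashtag samples. In the male hashtag samples it was at 0 to 1.39 CPM, so the hashtags fitted the labelled sex. This is not an independent check. The hashtag limits were chosen with earlier results known, because Xist and Ddx3y crossed between the sexes less than under the HTODemux caller.

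The values that chose the barcodes are given as a description only. Mki67 ranged from 2 to 61 UMIs with a median of 10, and Top2a from 2 to 49 UMIs with a median of 11. In 3 barcodes both genes were at exactly 2 UMIs, and in 10 at least 1 of the genes was. Just outside the rule lay 27 barcodes with 1 UMI of either gene and at least 2 of the other, and 11 barcodes with exactly 1 UMI of both. The cycling barcodes held 76.5% of all Mki67 and 81.9% of all Top2a UMIs of the kept barcodes, and 7322 kept barcodes had neither. Over the G2/M list of 58 genes, the median per 10000 UMIs was 88.3 in the cycling barcodes and 6.25 in barcodes with neither gene, and over the S phase list of 46 genes it was 38.4 and 4.08. Barcodes just outside the rule had G2/M medians of 33.7, 30.8 and 14.3 per 10000 in the first 3 libraries, between those of the groups on either side.

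The cycling barcodes differed widely in how much of each phase they carried. G2/M UMIs per 10000 ran from 15.3 to 280, and all 86 barcodes had at least 10 G2/M UMIs. Of these, 73 also had at least 10 UMIs of S phase genes. G2/M UMIs outnumbered S phase UMIs in 67 barcodes, S phase UMIs were more numerous in 17, and they were equal in 2. In 17 barcodes the totals lay within 0.5 of each other on the log2 scale, so the division is a range and not a pair of classes, and Top2a itself favours G2 and M.

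**Figure D1:**
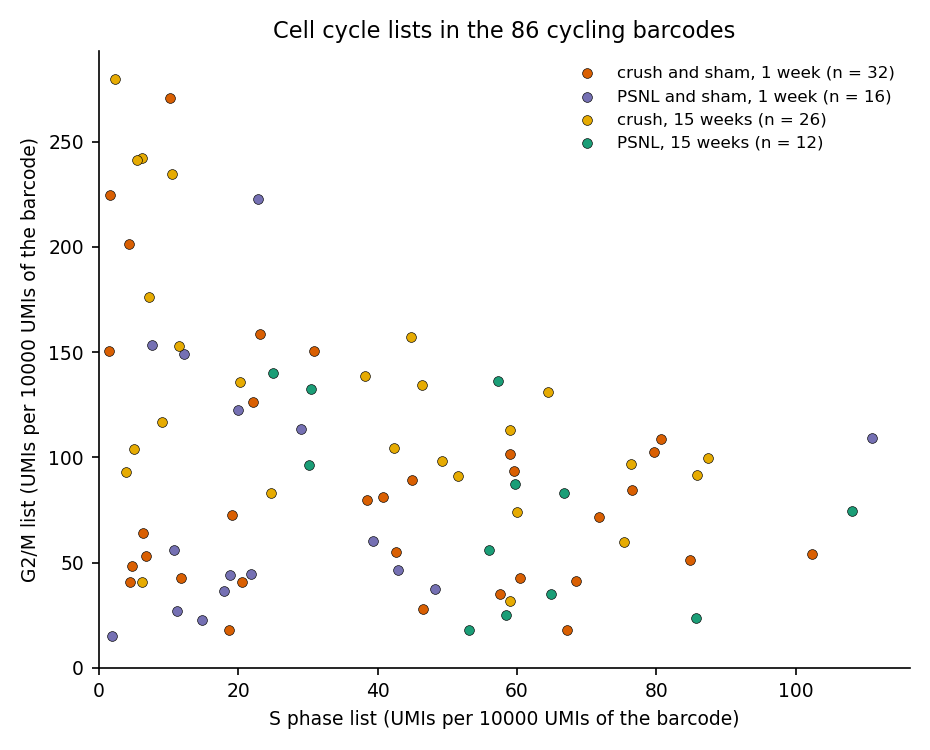
S phase against G2/M UMIs per 10000 UMIs for each of the 86 cycling barcodes, on linear axes and coloured by library. The G2/M values run from 15.3 to 280, and 67 barcodes hold more G2/M than S phase UMIs.

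The machinery of the cell cycle followed the rule that was used, and its counts support nothing further. Counts were summed over cycling and over other barcodes of each library and compared in edgeR's quasi-likelihood test with the library as a term, over 10616 genes. At an adjusted p under 0.05, 808 genes (7.61%) were higher and 965 (9.09%) lower in cycling barcodes. Of the G2/M genes 55 of 57 tested were higher with a median log2 difference of 5.30, and of the S phase genes 45 of 46 with a median of 3.05, against a median of -0.12 over all genes. Against other barcodes of like depth 758 of 10375 genes (7.31%) were higher and 858 (8.27%) lower, of which 746 and 853 were shared with the first fit. All 9 genes that license and unwind replication origins, 10 of the kinetochore and spindle checkpoint, 6 of condensin, 4 of the chromosomal passenger complex and 8 mitotic kinesins were higher. Cdk1 stood at 108, 125, 178 and 98.3 CPM in the cycling barcodes against 4.46, 2.09, 1.13 and 1.52 CPM in the others. The mitotic cyclins Ccna2 and Ccnb1 differed by 7.58 and 7.29 on the log2 scale.

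Not every cell cycle gene moved with the rule. Among 12 cyclins and kinases, Ccnd1, Ccnd2, Ccnd3 and Cdk6, which act on entry into the cycle, did not pass the test, and Ccnd1 had a log2 difference of 0.67. Myc, a growth transcription factor, stood at 21.1, 19.2, 22.4 and 9.36 CPM in cycling and 15.4, 10.2, 15.4 and 13.9 CPM in other barcodes. Of 9 cycle inhibitors tested, Cdkn2c (log2 difference 3.31), Cdkn2d (1.73) and Cdkn3 (5.67) were higher, where 7.61% of all genes were. The p21 gene Cdkn1a had a log2 difference of 0.98 with an adjusted p of 0.11, and the p27 gene Cdkn1b one of 0.08.

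The 10 largest rises outside the cell cycle lists, among genes higher in all 4 libraries with a mean of at least 50 CPM, were all genes of replication, histones or mitosis, and so belong to the programme the rule selects. They were Hist1h3c (8.88), Esco2 (8.46), Pbk (8.43), Neil3 (7.91), Aspm (7.17), Pclaf (7.03), Hist1h1b (6.97), Hist1h2ab (6.72), Knl1 (6.68) and Spc24 (6.68), given as log2 differences. Hist1h3c, a replication-dependent histone, ran from 70.2 to 268 CPM in the cycling barcodes and from 0 to 1.37 CPM in the others. Histone genes of this cluster are near-identical copies, so reads could be split between them.

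The lineage genes were not used by the rule. The 5 named genes were Cd209a (chromosome 8, 3743397 to 3748984, minus strand), a C-type lectin of dendritic cells, Mrc1 (chromosome 2, 14229392 to 14332057, plus strand), the mannose receptor of resident macrophages, and Gpnmb (chromosome 6, 49036546 to 49070929, plus strand), a glycoprotein of lipid-laden macrophages. The others were Ly6c2 (chromosome 15, 75108158 to 75111970, minus strand), which marks inflammatory monocytes, and H2-Eb1 (chromosome 17, 34305867 to 34316674, plus strand), a chain of MHC class II. Cycling barcodes held H2-Eb1 in 82 of 86 cases, with a level that the test did not tell apart from that of the others. Gpnmb and Ly6c2 were lower in cycling than in other barcodes, while Cd209a and Mrc1 were not called in the comparison over all libraries, although some alternatives called Mrc1 lower.

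Gpnmb UMIs were nearly absent from the cycling barcodes. Gpnmb was present in 2 of 32, 2 of 16, 3 of 26 and 0 of 12 cycling barcodes, in the order of libraries used above, and in 13.8%, 22.1%, 55.8% and 30.0% of the others. The summed level was 93.0, 38.3, 16.8 and 0 CPM in cycling barcodes, where the 3 counts that a count of 0 allows equal 14.0 CPM in the last library. In the other barcodes it was 239, 219, 1453 and 606 CPM, so every library was lower in the cycling barcodes and the difference was widest at 15 weeks. The log2 difference was -3.92 ± 0.65 (SE, 4 libraries, adjusted p = 0.00036 in edgeR's quasi-likelihood test), and it was called under each of 18 alternatives. Of the 7 cycling barcodes with Gpnmb, 4 had several hashtags, and without such barcodes the log2 difference was -7.08 with an adjusted p of 9.86e-09.

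Ly6c2 was lower by summed level, while the direction for the share of barcodes with a UMI depended on depth. It was found in 2 of 32, 6 of 16, 1 of 26 and 1 of 12 cycling barcodes (6.25%, 37.5%, 3.85% and 8.33%). Of the others 12.1%, 21.4%, 0.662% and 0.740% held it. Without allowance for depth the share was thus above that of the others in 3 of 4 libraries. Thinned to 2000 UMIs the shares were 0%, 6.25%, 0% and 8.33% against 8.11%, 13.9%, 0.384% and 0.296%. At this equal depth the share was below that of the others except in PSNL at 15 weeks, where 1 cycling barcode held the gene. The summed level was 12.7, 95.8, 1.87 and 4.68 CPM against 146, 150, 3.35 and 3.93 CPM in the others. The log2 difference was -1.82 ± 0.46 (SE, adjusted p = 0.010 in edgeR's test). At 15 weeks the gene was under 5 CPM on both sides, on 1 UMI in each cycling sum. Without the crush and sham library it was -0.82 with an adjusted p of 0.31.

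UMIs of H2-Eb1 were found in nearly all cycling barcodes. It was detected in 30 of 32, 14 of 16, 26 of 26 and 12 of 12 cycling barcodes and in 76.8%, 55.6%, 86.1% and 87.9% of the others. Thinned to 2000 UMIs per barcode, the shares were 90.6%, 75.0%, 96.2% and 91.7% against 78.9%, 50.7%, 79.9% and 81.8%. The summed levels were 4695, 1969, 5516 and 5953 CPM in cycling and 5011, 1873, 4458 and 5083 CPM in other barcodes, with a log2 difference of 0.02 ± 0.21 (SE, adjusted p = 0.98). The share of barcodes with a UMI was thus above that of the others in each library while the level was not told apart from theirs.

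The summed level of Cd209a differed from that of the other barcodes in opposite directions at the 2 times. The gene was detected in 15 of 32 and 1 of 16 cycling barcodes at 1 week, and in 12 of 26 and 4 of 12 at 15 weeks, against 31.9%, 10.8%, 7.62% and 12.5% of the others. Its summed level was 275 and 4.79 CPM in cycling against 387 and 92.6 CPM in other barcodes at 1 week, and 350 and 187 against 70.7 and 105 CPM at 15 weeks. By summed level cycling barcodes were therefore lower in both early libraries and higher in both late ones. The early value of the PSNL and sham library rested on 1 UMI. In the crush and sham library the share with a UMI was above that of the others without allowance for depth, and below it after thinning. The pooled log2 difference was 0.24 ± 0.48 (SE, adjusted p = 0.80), which pools these opposite signs. Across the cycling barcodes themselves the level was low in the PSNL and sham library alone, while the level of the other barcodes was highest in the crush and sham library. Thinned to 2000 UMIs, 21.9%, 0%, 30.8% and 16.7% of cycling barcodes held Cd209a, against 27.3%, 8.39%, 4.74% and 7.81% of the others.

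Mrc1 was carried by 15, 9, 19 and 8 cycling barcodes. Its level was 366, 287, 473 and 435 CPM in the cycling barcodes against 306, 278, 783 and 1458 CPM in the others. The cycling barcodes lay within a narrow band in all 4 libraries, and the others were higher at 15 weeks only. The log2 difference was -0.65 ± 0.28 (SE, adjusted p = 0.13 in edgeR's test). Thinning each barcode to 2000 UMIs gave -1.07 with an adjusted p of 0.0054, and 5 of 18 alternatives called the gene lower.

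Free RNA in droplets could give UMIs to barcodes that do not express a gene. The 3 to 5 barcodes a library with T cell receptor RNA had no UMI of Cd209a, Mrc1 or Gpnmb. Barcodes rich in S100a8 and S100a9, which mark neutrophils, numbered 39 and 262 in the 1 week libraries, and 7.69% and 2.29% of them held Cd209a, 7.69% and 19.1% Mrc1, 2.56% and 4.96% Gpnmb, and 20.5% and 26.3% H2-Eb1. Their median totals of 1892 and 2100 UMIs were well under those of the cycling barcodes. For the cycling barcodes of the PSNL and sham library, of which 1 held a single UMI of Cd209a, such background cannot be told apart from expression of that gene. The same holds for their lowest H2-Eb1 values of 2 to 10 UMIs. The S100a8 and S100a9 barcodes of that library held 553 CPM of H2-Eb1. Nor can background be told apart from expression where a 1 week cycling barcode held a single UMI of Cd209a or Mrc1. The 2 cycling barcodes with Gpnmb in the crush and sham library had 25 and 19 UMIs of it, where the S100a8 and S100a9 barcodes had at most 1, and both had several hashtags. Binomial intervals given here follow Wilson at 95% and cover counting error only.

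**Figure D2:**
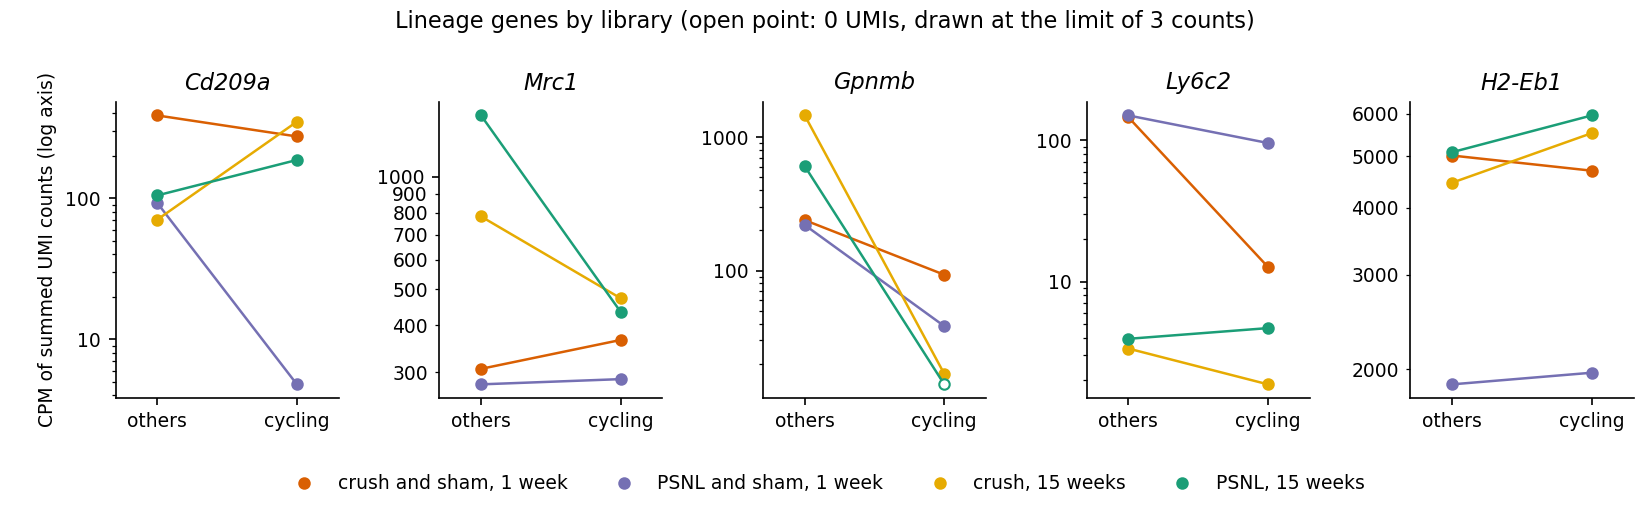
Summed level of the lineage genes in CPM (log axis) in cycling and in other barcodes, by library, with an open point for 0 UMIs drawn at the limit of 3 counts. Gpnmb is lower in cycling barcodes of all 4 libraries, and Cd209a is lower at 1 week and higher at 15 weeks.

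Taken barcode by barcode, the cycling cells carried several combinations of lineage genes. Both Cd209a and Mrc1 were found in 21 barcodes, Cd209a without Mrc1 in 11, Mrc1 without Cd209a in 30 and neither in 24. Cd209a with Mrc1 made up 24.4% of cycling and 8.06% of other barcodes, and Cd209a with H2-Eb1 but no Mrc1 12.8% and 5.87%. Mrc1 without Cd209a made up 29.2% of cycling and 33.2% of other barcodes at 1 week and 42.1% and 74.4% at 15 weeks. These shares are not adjusted for depth. They count a single UMI as carriage, and the part of free RNA in them was not tested. All 32 barcodes with Cd209a also held H2-Eb1, 31 held the chemokine receptor Ccr2 and none held Ly6c2. Several hashtags marked 9 of the barcodes with Cd209a and 8 of those with Mrc1 alone, and none of the 24 with neither gene.

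Most cycling barcodes held UMIs of either Flt3 or Csf1r alone, though these combinations were not counted in the other barcodes. Flt3 (chromosome 5) without Csf1r was found in 27, Csf1r (chromosome 18) without Flt3 in 32, both in 16 and neither in 11, the last with a median of 8849 UMIs. Of the 27 barcodes with Flt3 alone, 14 held Cd209a, 15 the dendritic cell transcription factor Zbtb46 and 5 Mrc1. Of the 32 with Csf1r alone, 27 held Mrc1, 9 the efferocytosis receptor Mertk, 8 Cd209a and 5 Gpnmb. The genes of type 1 conventional dendritic cells, Xcr1 or Clec9a, were found in 17 barcodes, of which 14 held Flt3 and 3 held Cd209a. Absence of a UMI at these depths is not absence of the RNA, and 1 barcode can hold more than 1 cell.

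**Figure D3:**
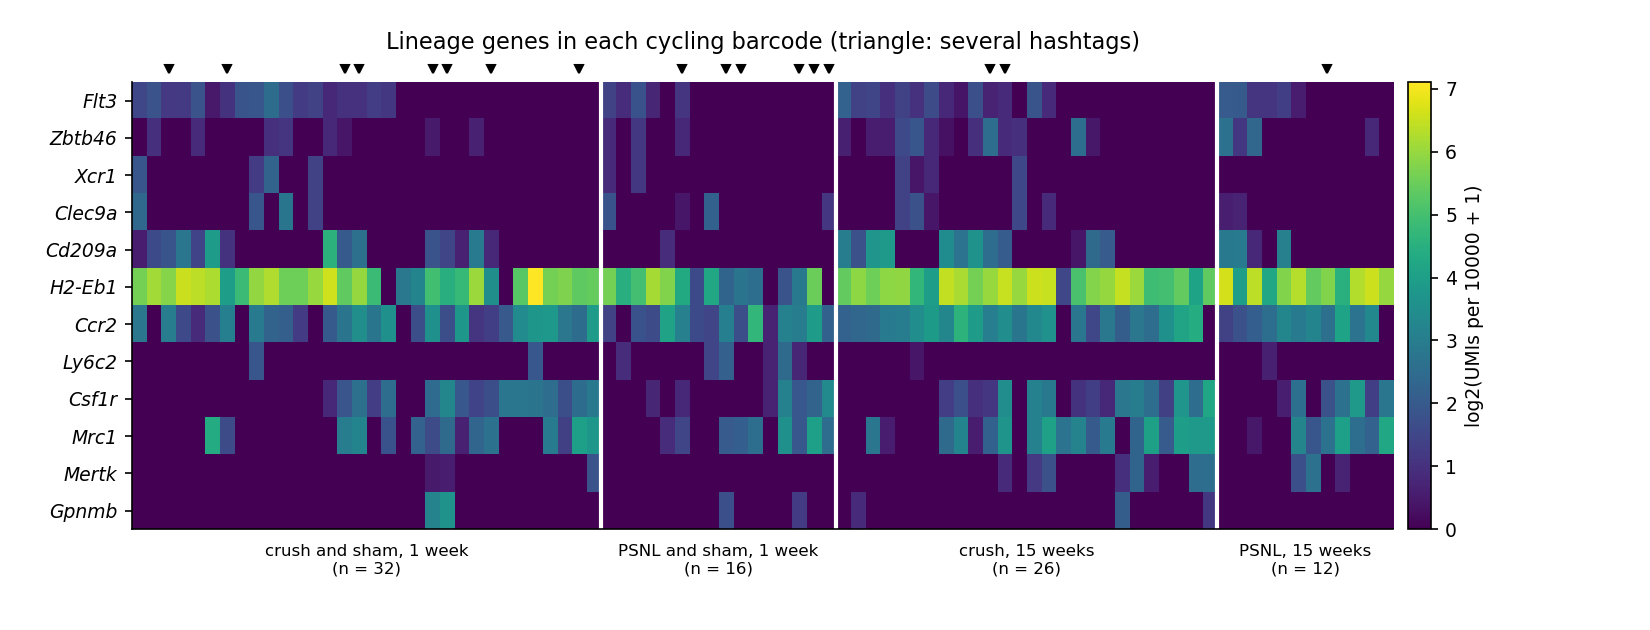
Lineage genes (rows) in each cycling barcode (columns, sorted within each library from Flt3 and Cd209a to Csf1r and Mrc1), coloured by log2(UMIs per 10000 + 1), with triangles over barcodes of several hashtags. H2-Eb1 fills 82 of 86 columns, and Flt3 and Csf1r occur together in 16.

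Among the myeloid lists, that of dendritic cell genes had the most members higher in cycling barcodes. Of 12 tested, 5 were higher and 1 lower, with a median log2 difference of 0.40, where 7.61% of all genes were higher. Zbtb46 stood at 19.0, 19.2, 89.8 and 112 CPM in cycling against 19.1, 6.63, 13.5 and 23.8 CPM in other barcodes, a log2 difference of 1.70 ± 0.38 (SE, adjusted p = 0.0039). Clec9a, a receptor for dead cells, was at 40.2, 33.5, 33.7 and 9.36 CPM against 16.5, 3.82, 1.54 and 5.102 CPM, a difference of 2.43 ± 0.53 (adjusted p = 0.0033). Clec9a was thus higher in cycling barcodes of all 4 libraries, though the last value rests on 2 UMIs.

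The other dendritic genes that rose were Xcr1, Flt3 and Kmo. Xcr1, a chemokine receptor, differed by 2.57 on the log2 scale (adjusted p = 0.025) with 13, 2, 12 and 0 UMIs in the cycling barcodes. Flt3 was at 90.9, 43.1, 84.1 and 93.6 CPM against 94.8, 28.3, 14.8 and 28.9 CPM, a difference of 1.10 (adjusted p = 0.039). Its level in cycling barcodes was lowest in the PSNL and sham library, and the others were lower at 15 weeks than in the crush and sham library. Kmo, an enzyme of tryptophan breakdown, differed by 1.01 (adjusted p = 0.013). Ccr7, which guides mature dendritic cells to lymph nodes, fell by 1.93 on the log2 scale (adjusted p = 0.026), and the only cycling library with any held 11 UMIs. In edgeR's test against other barcodes of like depth Flt3 had an adjusted p of 0.053 and was no longer called. Flt3 and Kmo were each called higher in 10 of 18 alternatives, Xcr1 in 11 of 17, Zbtb46 in 15 of 18 and Clec9a in 16 of 17. Thinning to 2000 UMIs lost the calls of Flt3, Kmo and Zbtb46. Without the PSNL 15 week library 1 of the 12 genes was higher, and without the crush 15 week library 2 were.

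Of 7 MHC class II genes 1 was higher and none lower, with a median log2 difference of 0.26, a count near the 7.61% of all genes that were higher. H2-Aa, H2-Ab1, Cd74, H2-DMa and H2-DMb1 were higher in cycling barcodes of all 4 libraries, where 16.8% of all tested genes were. Only H2-DMb1, which helps load peptides, passed the test, with 531, 268, 593 and 636 CPM against 376, 137, 360 and 383 CPM and a log2 difference of 0.61 (adjusted p = 0.041). It did not pass against barcodes of like depth (adjusted p = 0.057).

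Of the macrophage lists, that of lipid-laden macrophages lay lowest. Of 10 tested, 9 were lower, none was higher, and the median log2 difference was -2.30, where 9.09% of all genes were lower. Apoe, the lipid carrier, was at 4462, 1720, 2876 and 3548 CPM in cycling and 15217, 5019, 41247 and 24098 CPM in other barcodes, a log2 difference of -2.58. It was lower in cycling barcodes of all 4 libraries, where 17.1% of all tested genes were. Spp1, osteopontin, was at 61.3, 3751, 67.3 and 60.8 CPM against 575, 5565, 294 and 161 CPM (-1.90), with the PSNL and sham library far above the rest on both sides. The tetraspanin Cd63 (-2.70), the protease Ctsb (-2.13), the fatty acid binding protein Fabp5 (-2.47), Arg1 (-2.46), Lgals3 (-0.99) and Cd9 (-0.80) also fell, and Lpl had a difference of -1.08 with an adjusted p of 0.16.

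Genes of resident and endoneurial macrophages were lower as well. Of the 10 resident genes 6 were lower, with a median log2 difference of -1.70, and of the 9 endoneurial genes 6, with a median of -1.29, where 9.09% of all genes were lower. Pf4, a chemokine first known from platelets, was at 69.8, 187, 223 and 477 CPM against 209, 1209, 522 and 926 CPM (log2 difference -1.69). Selenop, a selenium carrier, was at 315, 240, 254 and 515 CPM against 714, 370, 2428 and 2267 CPM (-1.93). Trem2, a lipid receptor, was at 133, 120, 110 and 140 CPM against 276, 268, 1077 and 535 CPM (-1.99). Trem2 in the cycling barcodes was nearly constant across libraries. Cd163, Lyve1, Cbr2, Cx3cr1, Tmem119 and Fcrls were not called, although Cx3cr1 (log2 difference -0.71) was called lower in 7 and Cd163 (-0.52) in 2 of 18 alternatives. Mertk was found in 3, 0, 8 and 3 cycling barcodes against 20.6%, 14.5%, 74.8% and 62.4% of the others and was lower (adjusted p = 1.22e-06 in edgeR's test).

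UMIs of a list of broadly myeloid genes were found in every cycling barcode, but most of its genes lay lower. All 86 barcodes had at least 3 UMIs over the 10 genes of this list, which includes the pan-leukocyte gene Ptprc. Single genes of it, such as Csf1r and Itgam, had no UMI in some of them. Csf1r was at 245, 153, 258 and 262 CPM against 385, 232, 633 and 830 CPM, a log2 difference of -1.17 ± 0.23 (SE, adjusted p = 0.0013). Lyz2, Tyrobp, Fcer1g, Adgre1, Cd68 and C1qa were lower too, 7 of 10 in all with a median of -1.06, where 9.09% of all genes were lower. The pan-leukocyte gene Ptprc, the CD11b gene Itgam used for the sort and the myeloid factor Spi1 passed no test. Spi1 stood at 309, 216, 329 and 393 CPM in cycling and 307, 349, 335 and 364 CPM in other barcodes.

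Of the monocyte genes 4 of 10 tested fell, where 9.09% of all genes were lower. They were Ly6c2, Chil3 (-4.49), Hp (-3.20) and Thbs1 (-1.65), none was higher, and the median log2 difference was -0.58. The summed level of the list was 1884, 2305, 1466 and 1156 CPM in cycling and 2065, 4014, 488 and 711 CPM in other barcodes, and so was higher in cycling barcodes at 15 weeks. Chil3 and Hp rested on 1 and 5 UMIs in the cycling barcodes. Ccr2, the receptor by which monocytes and dendritic precursors leave the blood, was at 556, 589, 851 and 576 CPM in cycling and 542, 390, 210 and 363 CPM in other barcodes. It was higher in all 4 libraries and detected in 28, 15, 24 and 11 cycling barcodes, but its difference of 0.71 did not pass the test (adjusted p = 0.082).

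**Figure D4:**
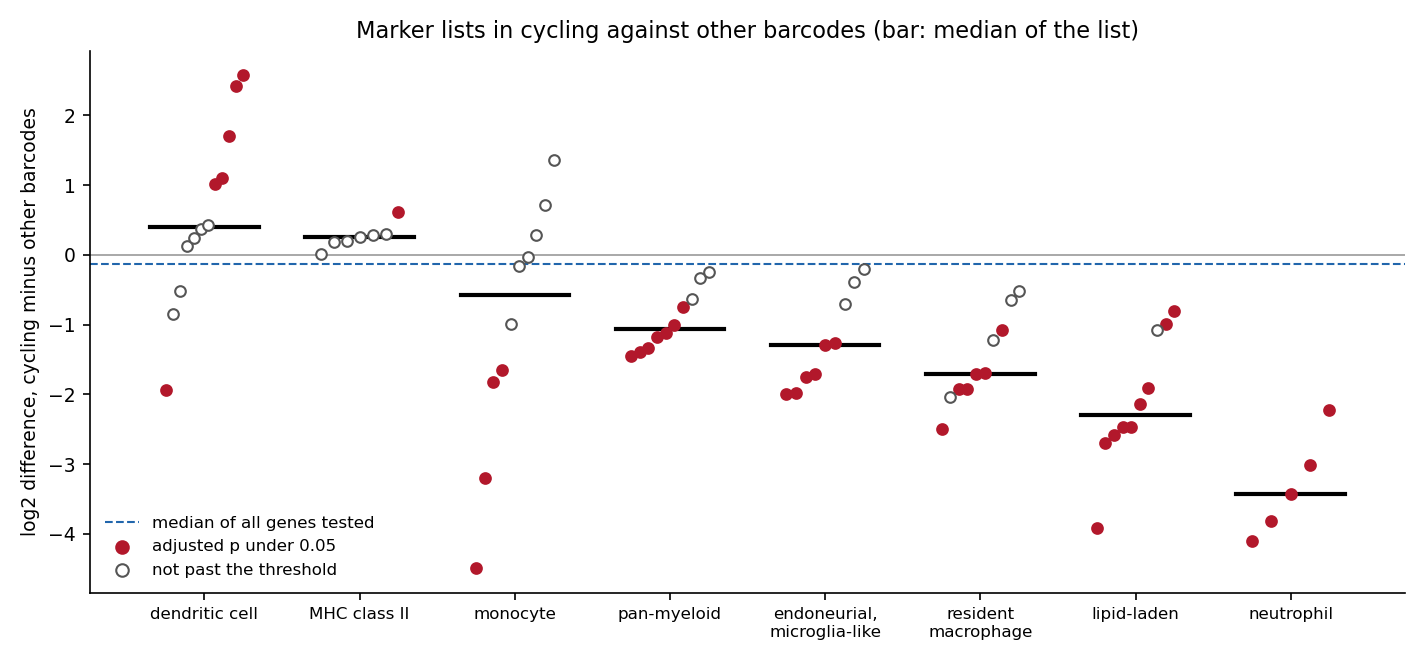
Log2 difference of cycling minus other barcodes for each tested gene of 8 marker lists, filled where the adjusted p was under 0.05, with a bar at the median of each list and a dashed line at the median of all genes tested (-0.12). The medians run from 0.40 for dendritic cell genes down to -2.30 for lipid-laden and -3.43 for neutrophil genes.

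Receptors for growth signals gave 1 rise and 3 falls among 10 genes, where 7.61% of all genes were higher and 9.09% lower, so the rise is near that share. Flt3 was higher, and Csf1r, the G-CSF receptor Csf3r (-2.22) and Igf1r (-1.22) were lower. Kit, the stem cell factor receptor, had 26, 5, 3 and 0 UMIs in the cycling barcodes and a log2 difference of 0.77 (adjusted p = 0.30). Csf2ra, a chain of the GM-CSF receptor, stood at 178, 187, 249 and 164 CPM against 174, 203, 177 and 144 CPM. Of 8 stress and dissociation genes none was higher, and Junb and Egr1 were lower.

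Markers of other cell types moved with the comparison. Of 5 neutrophil genes tested all were lower, with a median log2 difference of -3.43, where 9.09% of all genes were lower. Cxcr2 and Lcn2 of this list were not tested. The summed level of the list was 38.1, 4968, 15.0 and 9.36 CPM in cycling against 2052, 8284, 205 and 179 CPM in other barcodes. S100a8 alone gave 2.11, 2075, 1.87 and 0 CPM against 556, 3294, 40.9 and 13.4 CPM. Against barcodes of like depth, where 8.27% of all genes were lower, 3 of the 5 stayed called, and S100a8 had an adjusted p of 0.071. The summed T cell and innate lymphoid list lay at 82.5, 76.7, 16.8 and 14.0 CPM in cycling and 64.9, 173, 149 and 56.3 CPM in other barcodes, so it was higher in cycling barcodes of the crush and sham library and lower in the rest. In the 1 week libraries 5 of 32 and 3 of 16 cycling barcodes had at least 3 UMIs of it, against 62 of 1409 and 292 of 2084 others. The receptor gene Il7r gave 23 and 7 UMIs of these sums, and the T cell genes Cd3g and Trbc2 gave 3 UMIs each in the PSNL and sham library, while Cd3e had none in any cycling barcode. The Schwann cell list lay at 71.9 to 168 CPM in cycling and 105 to 303 CPM in other barcodes. No gene of the granulocyte precursor or erythroid lists was abundant enough to be tested. Leaving out barcodes with at least 3 UMIs over a list of T cells, NK cells, B cells, mast cells, Schwann cells, fibroblasts, endothelial or erythroid cells gave log2 differences of -2.66 for Gpnmb (adjusted p = 0.00010 in edgeR's test), -1.84 for Ly6c2 (0.016), -1.50 for Mrc1 (0.0096), 0.30 for Cd209a (0.76) and -0.28 for H2-Eb1 (0.51). The part of neutrophils in the lineage results was not tested.

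The 10 largest falls among genes that were lower in all 4 libraries and had a mean of at least 50 CPM in the other barcodes are given next. They were Atp6v0d2 (-5.51), a subunit of the lysosomal proton pump, Gdf15 (-5.28), Airn (-4.81), Fabp4 (-4.55), Samd4 (-4.24), Retnlg (-4.11), Gpnmb (-3.92), Gpx3 (-3.70), Mmp12 (-3.69) and S100a9 (-3.43), as log2 differences. Fabp4 binds fatty acids, Gpx3 reduces peroxides and Mmp12 is the macrophage elastase. Retnlg and S100a9 are neutrophil genes. Airn is annotated as antisense RNA, and reads from an overlapping gene could count toward it.

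The difference between cycling and other barcodes itself differed between times. In a test of the change in that difference from 1 to 15 weeks, 174 of 10616 genes (1.64%) passed, 129 (1.22%) upward and 45 (0.424%) downward. For Cd209a the difference shifted upward by 2.74 on the log2 scale (SE 0.42, adjusted p = 4.56e-08) and for Gpnmb by -4.97 (SE 0.56, adjusted p = 5.16e-15). Flt3 shifted by 2.01 (adjusted p = 0.0034). Mrc1 shifted by -1.35 (adjusted p = 0.023), but by -1.31 with an adjusted p of 0.055 against barcodes of like depth, and without the PSNL 15 week library by -0.90 with an adjusted p of 0.55. For Ly6c2 and H2-Eb1 the change was 1.47 and 0.30, with adjusted p of 0.85 and 0.92. The SE of this test was nearly the same for abundant genes, as for H2-Eb1 (0.353), Fcer1g (0.353) and Tyrobp (0.354). It thus rests largely on a spread shared between genes, and small p-values do not measure how alike the libraries of a time were. For Cd209a those of 1 week differed widely, at 275 against 387 CPM in crush and sham and 4.79 against 92.6 CPM in PSNL and sham. Time and batch cannot be told apart in these values.

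From the monocyte list Plac8 and Ms4a4c differed more from the other barcodes at 15 weeks, although their levels in cycling barcodes were lower then than at 1 week. Plac8 was at 298 and 355 CPM in cycling barcodes at 1 week and 89.8 and 84.2 CPM at 15 weeks, whereas the other barcodes held 354 and 366 CPM early and 3.31 and 12.96 CPM late. The gene thus became rare in the others and was less reduced in the cycling barcodes, with a shift of the difference of 3.98 (adjusted p = 4.2e-17 in edgeR's test). For Ms4a4c the difference shifted by 2.18 (adjusted p = 0.00014). The difference shifted downward for the macrophage genes Selenop (-1.76), Gas6 (-2.35) and Trem2 (-1.56) and for the integrin Itgax (-2.13). For Selenop and Trem2 the levels in the other barcodes, given above, were higher at 15 weeks than at 1 week. Trem2 of the cycling barcodes stayed between 110 and 140 CPM. Itgax was at 161, 33.5, 37.4 and 4.68 CPM in cycling and 109, 56.4, 135 and 32.3 CPM in other barcodes. Its last cycling value rested on 1 UMI.

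Within the cycling barcodes alone, no comparison had 2 samples a group with at least 10 cycling barcodes. With at least 5, there were 3 samples of 15 weeks (12, 9 and 5 barcodes) and 3 of 1 week (8, 15 and 7). In edgeR's test 247 of 2579 genes (9.58%) were higher and 42 (1.63%) lower at 15 weeks. Zbtb46 was higher by 2.19 (adjusted p = 0.015) and Ms4a4c lower, with a log2 difference of -1.71 (adjusted p = 0.035). Cd209a had a difference of 0.66 with an adjusted p of 0.56.

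Seen from the lineage side, the share of cycling barcodes was highest among Cd209a barcodes of the crush 15 week library. Of barcodes with at least 2 Cd209a UMIs, 2.83% (11 of 389), 0% (0 of 163), 7.38% (11 of 149) and 2.45% (4 of 163) were cycling. Of barcodes with fewer Cd209a UMIs, 2.00% (21 of 1052), 0.826% (16 of 1937), 0.654% (15 of 2293) and 0.498% (8 of 1606) were. The barcodes with at least 2 Cd209a UMIs were deeper, which the rule favours. Their median totals were 6746, 7301, 11438 and 10613 UMIs against 4261.5, 4977, 8116 and 6749. Thinned to 2000 UMIs the shares among Cd209a barcodes were 2.14%, 0.690%, 5.88% and 0%, so the crush 15 week library kept the highest value. Of barcodes with at least 2 Gpnmb UMIs, 2 of 142, 2 of 331, 1 of 1185 and 0 of 402 were cycling, against 2.31%, 0.791%, 1.99% and 0.878% of those with fewer.

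The share of cycling barcodes varied more between crush and PSNL samples than the small numbers could separate. By library it was 2.22% (interval 1.58% to 3.12%), 0.762% (0.470% to 1.23%), 1.06% (0.728% to 1.56%) and 0.678% (0.388% to 1.18%). At 1 week the samples were at 2.42% for crush female (8 of 331), 2.48% for crush male (15 of 605), 0.376% for PSNL female (2 of 532), 0.801% for PSNL male (7 of 874), 0.943% for sham male (1 of 106) and 1.56% for sham female (1 of 64). Both crush samples were above both PSNL samples, and each sham value rested on 1 barcode. At 15 weeks crush F1, F2 and M1 were at 2.46%, 0.882% and 0.579%, and PSNL F1, F2, M1 and M2 at 0.692%, 0.207%, 0.960% and 0.8287%, so the groups overlapped.

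To compare samples of unequal depth, each barcode was thinned to 2000 UMIs and called cycling with at least 1 UMI of both genes, which left out 10 to 150 shallower barcodes a sample. Crush samples were then at 2.44% ± 0.0356 and PSNL samples at 0.541% ± 0.407 at 1 week (SD, n = 2 each), a difference of -1.90 percentage points with p = 0.333 in an exact permutation test, the smallest p this design allows. At 15 weeks they were at 0.810% ± 0.309 (n = 3) and 0.351% ± 0.299 (SD, n = 4), with p = 0.114 in the exact permutation test, where 0.0571 is the smallest possible. Injured samples had 1.49% ± 1.12 at 1 week (n = 4) and 0.547% ± 0.370 at 15 weeks (SD, n = 7), with p = 0.121 in the exact permutation test. Sham samples had 1.64% ± 0.692 (SD, n = 2), and their difference from injured samples at 1 week was -0.148 percentage points with p = 0.933 in the exact permutation test. The p-values adjusted over these 4 two-sided comparisons were 0.444, 0.242, 0.242 and 0.933 in that order. At both times crush and PSNL samples were run in separate libraries, so surgery and library cannot be told apart. PSNL F2 had 0 of 464 thinned barcodes, for which the interval reaches 0.821%.

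**Figure D5:**
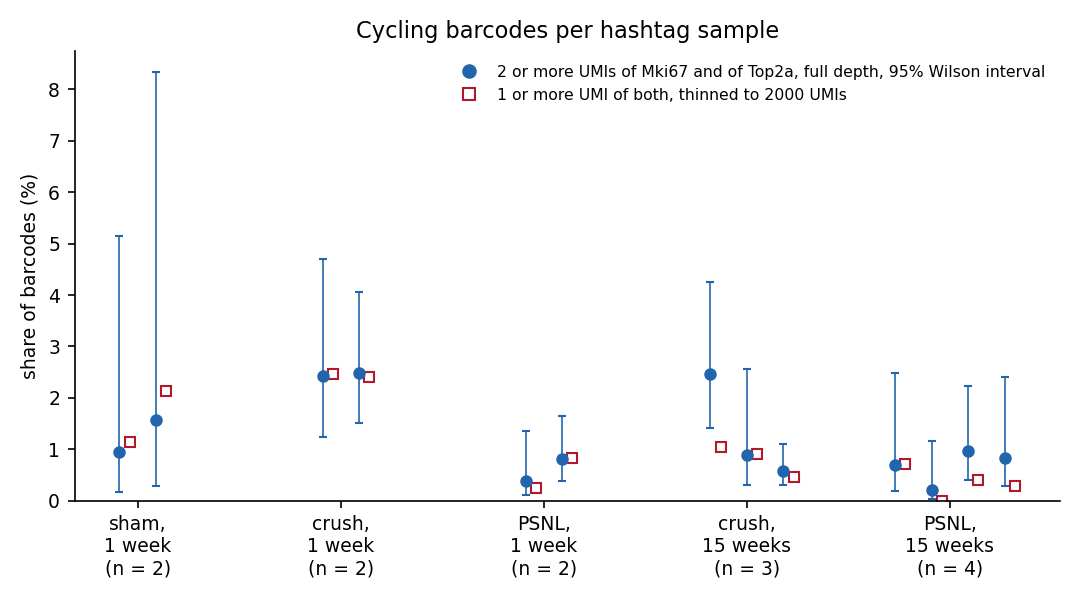
Cycling barcodes as a percentage of kept barcodes in each hashtag sample, as circles by the rule with 95% Wilson intervals and as squares after thinning to 2000 UMIs. Both crush samples of 1 week lie above both PSNL samples of 1 week, and the intervals of the sham samples are the widest.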

How the data were processed

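Droplet single-cell RNA and hashtag libraries of sorted nerve myeloid cells were analysed. The deposited values are UMI counts per gene and barcode from Cell Ranger, with no normalization by the authors; the file headers give version 6.0.0 (1 week) and 7.0.0 (15 weeks), and the submitters' notes name GRCm38. Whether intronic reads were counted is not given in the sources used here. Symbols shared by all files (30406) were kept. Barcodes above the valley of 2 or more hashtags were called several-hashtag. Counts were summed per library into cycling and other barcodes (472889, 208717, 534815 and 213671 UMIs in the cycling sums) and tested with edgeR 4.0.16 (R 4.3.3) using TMM scaling, a low-count filter, a library term and Benjamini-Hochberg adjustment. Shares were compared with two-sided exact permutation tests (Python 3.11.15). On data simulated for the comparison with other barcodes, with 10616 genes, 27% of 2-fold and 75% of 4-fold changes were recovered. Members and gene lists were chosen with earlier results of these data known. Named genes were the list members and the 10 largest rises and falls outside the cell cycle lists that were alike in all 4 libraries with a mean of at least 50 CPM. Same-numbered 15 week samples (F1, F2, M1) deviated together over 8341 genes (correlations 0.130, 0.274 and 0.230). These correlations, and no label, are the ground for pairing them in an alternative. Other alternatives were DESeq2 1.42.0, RLE scaling, no low-count filter, other gates and barcode limits, thinning, HTODemux of Seurat 5.3.0, sums per hashtag sample, leaving out several-hashtag barcodes, barcodes with markers of other cell types or cell cycle genes, and leaving out each library or sample. One further hashtag (110 UMIs) matched no label and was not used.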

Additional observations from a re-analysis of the deposited data

Results flagged for a closer look

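For 3 lineage genes the log2 difference between cycling and other barcodes was not the same at 15 weeks as at 1 week, by a test of that change itself in edgeR. The spread in that test is largely shared between genes, so its p-values do not measure how alike the libraries of a time were. The change was 2.74 for Cd209a (adjusted p = 4.56e-08), -1.35 for Mrc1 (adjusted p = 0.023) and -4.97 for Gpnmb (adjusted p = 5.16e-15). The call of Mrc1 was lost against barcodes of like depth (-1.31, adjusted p = 0.055) and without any of 3 of the 4 libraries, with -0.90 and an adjusted p of 0.55 without PSNL at 15 weeks. For Cd209a the cycling barcodes were lower by summed level in both 1 week libraries and higher in both 15 week libraries. The cycling sum of the PSNL and sham library held 1 UMI of Cd209a. For Gpnmb they were lower in all 4 libraries and more so at 15 weeks, and for Mrc1 they were lower at 15 weeks only. Time and batch cannot be told apart, and the share of several-hashtag barcodes, 14 of 48 cycling barcodes at 1 week and 3 of 38 at 15 weeks, moves with time too. Its part in these values was not tested.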

How the results depend on the processing

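Of 1103 values under alternatives, 976 kept their direction and side of the threshold, 95 lost and 17 gained a call, and 15 changed sign. Against 808 genes higher and 965 lower, thinning gave 210 and 427, leaving out barcodes with markers of other cell types 526 and 614 (with 21, 12, 9 and 6 cycling barcodes left) and no library term 447 and 130. Leaving out each library gave 564 to 804 higher and 553 to 1004 lower, with the low counts without either 15 week library (558 lower without crush, 553 without PSNL). Cd209a changed sign with DESeq2 (-0.15) and over left-out libraries ran from -0.53 (without crush at 15 weeks) to 0.81. Mrc1 was called lower after thinning (-1.07), with no low-count filter (-0.72), with sums per hashtag sample (-1.46) and without markers of other types (-1.50), and ran from -0.93 to -0.27 over left-out libraries. Ly6c2 lost its call with DESeq2 (-1.66) and no library term (-1.73), and ran from -3.13 to -0.82. H2-Eb1, never called, was -0.025 at like depth, -0.39 thinned, -0.014 with a gate of 3 UMIs, -0.054 with no filter, -0.025 with strict barcode limits, -0.28 without markers of other types, and from -0.040 to 0.084 over left-out libraries. The change of Mrc1 between times was -1.31 at like depth and ran from -1.87 to -0.90, and of the libraries only leaving out crush at 15 weeks kept its call. The injured against sham difference was 0.265 unthinned, 0.180 thinned to 1000 UMIs and -0.637 to 0.341 over left-out samples. With PSNL and crush samples F1, F2 and M1 paired as a replicate block, the difference in share was -0.437 percentage points (exact sign-flip test, p = 0.25), and the block changed no call. Of the 52 named genes 49 were called, and none of their 904 values changed sign. The comparison within cycling barcodes was run only with at least 5 a sample, and its other alternatives were not run. The small cycling sums limit what low genes can show.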
